A study of Mus musculus with 12 samples.

Results

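The CXC chemokine ligands described here are Cxcl1, Cxcl2, Cxcl3, Ppbp, Pf4, Cxcl9, Cxcl10 and Cxcl16, which are 8 of the 47643 genes in the deposited count tables. They were chosen by name, and all 8 were among the 14034 genes that passed the filter on low counts. CXC chemokines are small secreted proteins that draw leukocytes along a gradient by binding G protein-coupled receptors. Those with a glutamate-leucine-arginine (ELR) motif before the CXC cysteines attract neutrophils through CXCR2, whereas the interferon-induced ligands of CXCR3 attract activated T cells. Monocytes and the dendritic cells that they form are known sources of several of them in inflamed tissue.

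The mRNA came from mouse bone marrow monocytes on a C57BL/6 background, sequenced as strand-specific polyadenylated RNA. Nr4a3 knockout (KO) and wild-type (WT) cells were sorted and lysed, or were first cultured with the cytokines GM-CSF and IL-4, which turn monocytes into dendritic cells, for 1 or 2 days. There were 2 libraries in each of the 6 groups, which were KO and WT monocytes, KO and WT cells at day 1 and KO and WT cells at day 2. The labels report 2 independent experiments but do not say how the Nr4a3 allele was disrupted, which sort gate was used or how many mice gave each library, so p-values measure only the spread between these libraries. Values are given as CPM, a gene's counts scaled to a common library total, on library sizes scaled by the trimmed mean of M-values, for replicate 1 and then replicate 2.

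Libraries held 5905266 to 18447405 reads in genes. Nr4a3, the disrupted gene, had 234 and 236 reads in KO and 11194 and 10741 reads in WT cells at day 2. It had 76 and 0 reads in KO and 200 and 128 reads in WT cells at day 1, and at most 13 reads in any monocyte library. The count of 76 belongs to the library labelled KO day 1 replicate 1, which also had 14 reads of Cxcr2 against 2317 to 2630 in the other day 1 libraries. Whether its label holds could not be settled. Without it, Cxcl3, Pf4 and Cxcl16 were still higher in KO day 1 cells than in KO monocytes (edgeR adjusted p = 0.00126, 0.000693 and 0.000508), and no other ligand was called in that comparison. Summed markers of classical monocytes, 7 genes, were at 975 to 2579 CPM at day 2 and 8767 to 11941 CPM in monocytes, while 10 markers of monocyte-derived dendritic cells summed to 34383 to 37056 CPM at day 2 and 236 to 304 CPM in monocytes. Neutrophil markers, 13 genes, summed to 4308 CPM in WT monocytes replicate 2 and to 1079 to 2102 CPM in the other monocyte libraries. Xist was at 793 and 885 CPM in KO and WT day 2 replicate 1, against at most 1.01 CPM elsewhere. Dates carried by the deposited tables put the day 2 libraries in experiments separate from those of the other stages, so culture time and experiment cannot be told apart in comparisons with day 2. The table names of both day 1 replicate 2 libraries give a culture shorter than the labelled day. The day 1 replicates may therefore differ in culture time.

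The genes of 5 ligands lie in 1 stretch of mouse chromosome 5 (GRCm38), from Ppbp, whose gene spans chr5:90768518-90770063, through Pf4, Cxcl3 and Cxcl1 to Cxcl2 at chr5:90903871-90905938, all on the plus strand. Cxcl9 and Cxcl10 lie near each other on the minus strand of the same chromosome, at chr5:92321347-92328079 and chr5:92346638-92348889. Cxcl16 stands alone at chr11:70453983-70459984 on the minus strand. Art3 overlaps all 2252 bases of Cxcl10 on the other strand and Zmynd15 overlaps 552 bases of Cxcl16, so these genes rest on strand-specific counting. In coding sequence Cxcl2 and Cxcl3 shared 89.8% of aligned bases, Cxcl1 and Cxcl2 shared 75.6% and Cxcl1 and Cxcl3 shared 72.6%. For Cxcl2, 5.84% of its 50-base windows also occurred in Cxcl3, so a small part of the reads of this pair cannot be assigned with certainty.

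The promoters of the 3 close paralogs are shown because they share 1 run of 11 letters before the start, the longest that all 3 have in common there, which reads as the classical binding sequence of NF-kB, the transcription factor family that drives inflammatory genes. RefSeq promoters (GRCm38.p6) were found for 7 of the 8 ligands, all except Cxcl16. Capitals mark GGGAATTTCCC in Cxcl1, Cxcl2 and Cxcl3, and in Cxcl10 2 GAAA blocks with 2 bases between them, the pattern read by interferon regulatory factors. Each stretch is 80 bases on the gene's own strand, and positions count back from the RefSeq start.
Cxcl1, chr5:90891135-90891214, plus strand, bases -110 to -31: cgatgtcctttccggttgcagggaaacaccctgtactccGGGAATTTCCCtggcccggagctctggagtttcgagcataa
Cxcl2, chr5:90903789-90903868, plus strand, bases -110 to -31: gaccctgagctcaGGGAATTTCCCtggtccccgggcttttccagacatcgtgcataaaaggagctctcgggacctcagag
Cxcl3, chr5:90785991-90786070, plus strand, bases -110 to -31: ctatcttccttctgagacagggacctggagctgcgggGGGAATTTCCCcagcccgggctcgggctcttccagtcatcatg
Cxcl10, chr5:92349030-92349109, minus strand, bases -220 to -141: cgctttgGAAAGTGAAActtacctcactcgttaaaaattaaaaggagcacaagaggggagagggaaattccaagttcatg
Searched on both strands, GGGAATTTCCC occurred in 14 of the 32851 RefSeq mouse promoters of 300 bases, or 0.0426%, a count that includes these 3. The spaced GAAA pair occurred in 3.44% of them. A looser pattern of GGG and CC with any 5 bases between, which every copy of the 11 letters contains, occurred in 50.8% of promoters and, among the ligands, in those of Cxcl1, Cxcl2, Cxcl3, Cxcl9 and Cxcl10. The promoters of Pf4 and Ppbp held none of these 3 patterns.

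The 3′ ends of the same 3 transcripts carry runs of ATTTA, the letters recognised by proteins that speed the decay of cytokine mRNA, and these runs are printed with ATTTA in capitals. Each is the 30-base stretch of the 3′ untranslated region with the most copies.
Cxcl1: gagggtcctATTTATTTAtgtATTTATTTA
Cxcl2: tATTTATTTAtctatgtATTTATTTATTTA
Cxcl3: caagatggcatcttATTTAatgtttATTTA
Over the whole 3′ untranslated region, Cxcl2 had 11 copies, Cxcl1 had 7 and Cxcl3 had 5, and the other ligands had between 1 and 3. Per kilobase, 0.267% of 19466 genes had as many copies as Cxcl2 or more, 0.55% as many as Cxcl1 and 2.37% as many as Cxcl3. Pf4, with a single copy in 123 bases, was denser than Cxcl3, and 2.0% of genes had as many as Pf4.

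Different ligands supplied most of the family's reads before and after culture. In monocytes the reads of the 8 ligands were mostly Cxcl10, which made up 89.8% and 69.2% of them in KO and 66.4% and 60.2% in WT libraries. Day 1 reads came mainly from Cxcl16, Pf4 and Cxcl3. By day 2 they were mostly Cxcl16, at 84.6% and 72.6% in KO and 87.6% and 80.1% in WT libraries, and Cxcl10 was at 0.208% or below. Summed over all 8, ligand mRNA was at 27.9 and 28.3 CPM in KO and 32.8 and 46.6 CPM in WT monocytes. At day 1 the sum was 260.4 and 157 CPM in KO and 104 and 287 CPM in WT cells. At day 2 it was 639.8 and 432 CPM in KO and 482 and 287 CPM in WT cells. The sums of all 8 cultured libraries were above those of all 4 monocyte libraries.

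**Figure D1:**
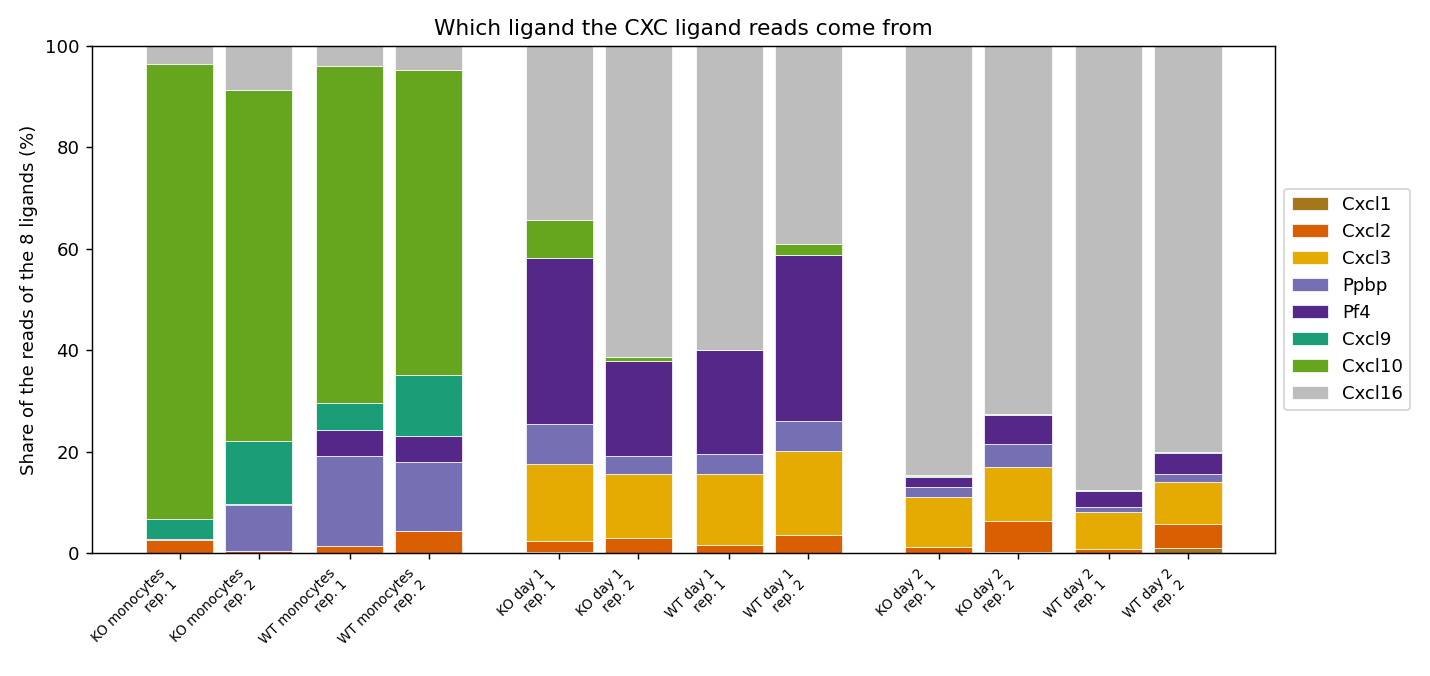
Share of the reads of the 8 ligands that came from each ligand (y axis, %), in each of the 12 libraries (x axis), with KO left of WT at each stage. Cxcl10 fills 60.2% to 89.8% of the bars of monocytes and Cxcl16 fills 72.6% to 87.6% of the bars at day 2.

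Levels of different genes can be set side by side only per length, here as RPKM, which is CPM per kilobase of transcript. Cxcl10 led in monocytes with a mean of 9.9 RPKM in KO and 11.1 RPKM in WT cells. Ppbp was next at 0 to 2.36 RPKM in KO and 5.37 to 5.84 RPKM in WT libraries. Pf4 led at day 1, with libraries at 40.7 to 118 RPKM in KO and 29.6 to 130.1 RPKM in WT cells. The ranges of Pf4 and Cxcl16 did not overlap in KO day 1 cells, where Cxcl16 was at 29.6 to 31.8 RPKM. They did overlap in WT day 1 cells, where Cxcl16 was at 20.6 to 37.2 RPKM. Cxcl16 led at day 2 with 104 to 179 RPKM in KO and 76.2 to 139.8 RPKM in WT libraries, above every library of the next ligand, Pf4, at 18.3 to 34.6 RPKM in KO and 16.5 to 20.7 RPKM in WT libraries. Below them at day 2 came Cxcl3, Ppbp and Cxcl2, and Cxcl1, Cxcl9 and Cxcl10 were each under 1 RPKM on average.

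**Figure D2:**
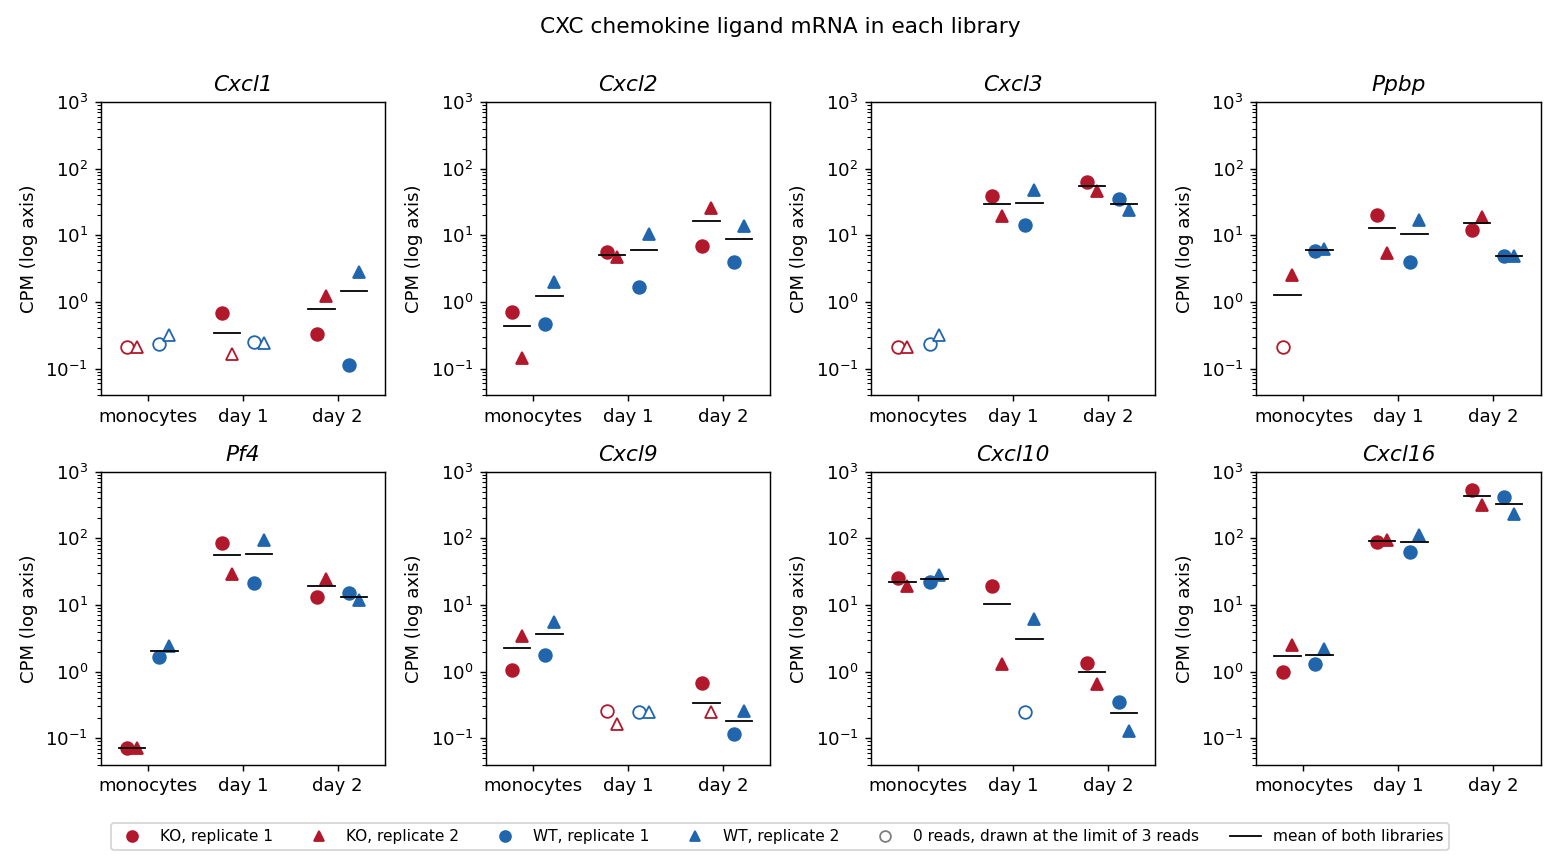
CPM of each ligand (y axis, log scale) in monocytes, at day 1 and at day 2 (x axis), with KO in red left of WT in blue, circles for replicate 1, triangles for replicate 2 and a line at the mean of both libraries. Hollow points are libraries with 0 reads, drawn at the limit of 3 reads; Cxcl3 is hollow in all 4 monocyte libraries and Cxcl9 in all 4 at day 1.

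Of the ELR ligands, Cxcl3, a neutrophil attractant, was undetected in monocytes and abundant after culture. It had no read in any monocyte library, so its level there was below 0.213 to 0.316 CPM, the limit set by 3 reads. At day 1 it had 39.5 and 19.7 CPM in KO and 14.5 and 47.6 CPM in WT cells, and at day 2 it had 64.0 and 46.3 CPM in KO and 35.2 and 23.6 CPM in WT cells. Every cultured library was thus far above every monocyte library. Against that limit, averaged over the group's libraries, Cxcl3 rose at least 139-fold in KO cells at day 1 (adjusted p = 0.00086, edgeR quasi-likelihood test) and at least 114-fold in WT cells (edgeR adjusted p = 0.000699). Day 2 levels were at least 258-fold higher in KO cells (edgeR adjusted p = 0.000359) and at least 108-fold higher in WT cells (edgeR adjusted p = 0.000469) than in their monocytes.

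Cxcl2, its nearest relative and also a neutrophil attractant, was low in monocytes, with 0.714 and 0.142 CPM in KO and 0.459 and 2.0 CPM in WT libraries. It had 5.54 and 4.76 CPM in KO and 1.65 and 10.4 CPM in WT cells at day 1. Day 2 cells had 7.0 and 26.1 CPM in KO and 4.02 and 13.6 CPM in WT, and in both genotypes replicate 2 was the higher. The rise passed the test in KO cells at day 2, with a log2 fold change of 5.25 ± 1.24 (SE, edgeR adjusted p = 0.0154, n = 2 libraries each). This call was lost without KO day 2 replicate 2 (3.98, edgeR adjusted p = 0.0895), without KO monocytes replicate 1 (6.75, edgeR adjusted p = 0.0571) and without KO monocytes replicate 2 (4.54, edgeR adjusted p = 0.13). In WT cells at day 2 the log2 fold change of Cxcl2 was 2.87 ± 1.11 (edgeR adjusted p = 0.0871), and with the experiment as a block in the fit it was 2.77 and passed (edgeR adjusted p = 0.0414). In KO cells at day 1 it was 3.56 ± 1.18 (edgeR adjusted p = 0.0708), and with the block 3.5, which passed (edgeR adjusted p = 0.0285).

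Cxcl1, the third paralog, stayed close to the detection limit. It had 0 reads in all 4 monocyte libraries, 8 and 0 reads in KO and 0 and 0 reads in WT cells at day 1, and 2 and 15 reads in KO and 1 and 22 reads in WT cells at day 2. Its highest level was 2.78 CPM, in WT day 2 replicate 2, and the higher library of each genotype at day 2 was again replicate 2. No comparison of Cxcl1 passed the test (edgeR adjusted p of 0.135 or above).

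Ppbp encodes pro-platelet basic protein, which platelets store and which is trimmed to a CXCR2 ligand. In monocytes it had 0 and 2.55 CPM in KO and 5.82 and 6.32 CPM in WT libraries. At day 1 it had 20.5 and 5.41 CPM in KO and 4.04 and 17 CPM in WT cells, and at day 2 it had 12 and 19 CPM in KO and 4.83 and 4.93 CPM in WT cells. In KO cells both culture days were above both monocyte libraries, whereas WT day 2 cells were slightly below WT monocytes. The log2 fold change at day 2 was 3.59 ± 1.22 in KO cells (edgeR adjusted p = 0.066) and -0.31 ± 1.11 in WT cells (edgeR adjusted p = 0.863), and neither passed the test.

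Pf4, platelet factor 4, is a heparin-binding chemokine of platelet granules that lacks the ELR motif. In monocytes 1 and 1 read were counted in KO and 22 and 23 reads in WT libraries, or 0.0714 and 0.0709 CPM in KO and 1.68 and 2.42 CPM in WT cells. It was highest at day 1, with 85.2 and 29.4 CPM in KO and 21.4 and 93.8 CPM in WT cells. The day 2 levels were 13.2 and 24.9 CPM in KO and 14.9 and 11.9 CPM in WT cells. Day 1 libraries were all above the day 2 libraries of the same genotype, and all cultured libraries were above all monocyte libraries. In WT cells Pf4 rose by a log2 fold change of 4.81 ± 0.78 at day 1 (edgeR adjusted p = 0.00227) and 2.71 ± 0.73 at day 2 (edgeR adjusted p = 0.0234). The WT day 2 call was lost when either WT day 2 library or either WT monocyte library was left out (2.48 to 2.96, edgeR adjusted p of 0.0518 to 0.0858). In KO cells, where the 2 reads of both monocyte libraries set the base, the ratio was 717-fold at day 1 (95% counting interval 198 to 5926, edgeR adjusted p = 0.000598) and 296-fold at day 2 (81.4 to 2454, edgeR adjusted p = 0.000885). The step between days was a log2 fold change of -1.58 ± 0.66 in KO cells (edgeR adjusted p = 0.243) and -2.10 ± 0.67 in WT cells (edgeR adjusted p = 0.0813), which did not pass.

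Because platelets carry Pf4 and Ppbp mRNA, 14 platelet and megakaryocyte markers were read beside them. Their sum was 53.8 to 60.5 CPM in KO and 56.9 to 96.3 CPM in WT monocytes. At day 1, where Pf4 was highest, it was 2.68 to 3.5 CPM in KO and 5.87 to 7.10 CPM in WT cells, and 8 of the 14 markers in KO and 6 of the 14 in WT cells had no read in either library, with Gp1ba, Gp1bb, Gp5, Gp6 and Gp9 among them in both genotypes. At day 2 it was 64.1 to 84.3 CPM in KO and 39.4 to 78.5 CPM in WT cells. Itgb3, an integrin subunit that monocytes and macrophages also make, supplied most of it at the outset, with 53.5 and 44.8 CPM in KO and 82.4 and 40.4 CPM in WT monocytes. It also supplied most at day 2, with 62.3 and 40.2 CPM in KO and 60.9 and 25.1 CPM in WT cells. Without Itgb3 the other 13 markers summed to 1.56 and 2.95 CPM in KO and 1.82 and 2.61 CPM in WT cells at day 1. At day 2 they summed to 22.0 and 23.9 CPM in KO and 17.6 and 14.3 CPM in WT cells. Both sums were lowest at day 1, where Pf4 was highest. The part of platelet RNA in the levels of Pf4 and Ppbp was not tested.

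**Figure D3:**
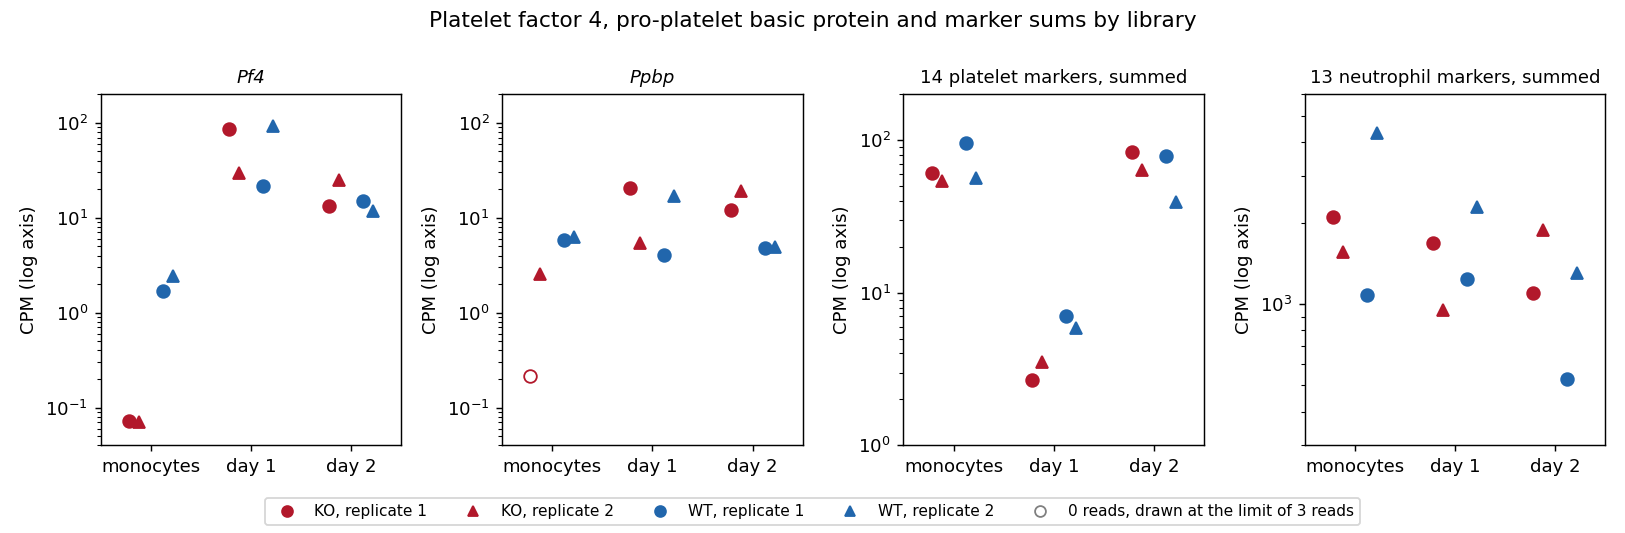
CPM (y axes, log scale) of Pf4, Ppbp, the sum of 14 platelet markers and the sum of 13 neutrophil markers in each library, by stage (x axes), with KO in red left of WT in blue and circles and triangles for replicates 1 and 2. Pf4 peaks at day 1, where the platelet marker sum is lowest at 2.68 to 7.10 CPM.

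The ligands of CXCR3, Cxcl9 and Cxcl10, which interferon-gamma induces and which attract activated T cells, followed the opposite course. Cxcl10 had 25.1 and 19.6 CPM in KO and 21.8 and 28 CPM in WT monocytes. At day 1 it had 19.6 and 1.31 CPM in KO and 0 and 6.20 CPM in WT cells, so the libraries of each pair were far apart. At day 2 it had 1.33 and 0.654 CPM in KO and 0.345 and 0.126 CPM in WT cells, all below every monocyte library. Cxcl10 fell in WT cells at day 2, with a log2 fold change of -6.64 ± 1.82 (edgeR adjusted p = 0.0252). That call was lost with the experiment as a block (-6.77, edgeR adjusted p = 0.0662), without either WT day 2 library (-7.53 and -6.14, edgeR adjusted p = 0.104 and 0.139) and without WT monocytes replicate 2 (-6.48, edgeR adjusted p = 0.0528). In KO cells at day 2 its log2 fold change was -4.55 ± 1.56 and did not pass (edgeR adjusted p = 0.0679), and at day 1 it was -1.11 ± 1.27 in KO (edgeR adjusted p = 0.612) and -3.0 ± 1.37 in WT cells (edgeR adjusted p = 0.144).

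Cxcl9 had 1.07 and 3.47 CPM in KO and 1.76 and 5.59 CPM in WT monocytes, and no read in any of the 4 day 1 libraries. By day 2 there were 4 and 0 reads in KO and 1 and 2 reads in WT cells. All cultured libraries were below all monocyte libraries. At day 1 it fell at least 14.9-fold in WT cells (edgeR adjusted p = 0.0319), and this call was lost without either WT day 1 library (edgeR adjusted p = 0.119 for each) and without WT monocytes replicate 2 (edgeR adjusted p = 0.0787). In KO day 1 cells Cxcl9 was at least 10.7-fold lower than in KO monocytes, which missed the threshold (edgeR adjusted p = 0.0508) and passed with the experiment as a block (edgeR adjusted p = 0.0406). On its 3 reads at day 2, Cxcl9 was 18.7-fold lower in WT day 2 cells than in WT monocytes (95% counting interval 6.15 to 92.5), which did not pass the test (edgeR adjusted p = 0.106).

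Cxcl16, a membrane-anchored ligand of CXCR6 that is also shed in soluble form and takes up oxidised lipoprotein, had the highest counts of the family. It was at 0.999 and 2.48 CPM in KO and 1.30 and 2.21 CPM in WT monocytes. At day 1 it was at 89.4 and 96 CPM in KO and 62.1 and 112 CPM in WT cells, and at day 2 at 541 and 313 CPM in KO and 422 and 230.2 CPM in WT cells. The libraries of the 3 stages did not overlap in either genotype. In KO cells the log2 fold change was 5.73 ± 0.59 at day 1 (edgeR adjusted p = 0.000347) and 7.93 ± 0.64 at day 2 (edgeR adjusted p = 5.17e-05). In WT cells it was 5.65 ± 0.59 at day 1 (edgeR adjusted p = 0.000289) and 7.55 ± 0.64 at day 2 (edgeR adjusted p = 4.46e-05).

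Cxcl16 was also the one ligand called between the culture days, with a log2 fold change of day 2 over day 1 of 2.2 ± 0.48 in KO cells (edgeR adjusted p = 0.0462) and 1.90 ± 0.48 in WT cells (edgeR adjusted p = 0.0374). The KO call was lost when any of the 4 KO libraries at day 1 and day 2 was left out (1.77 to 2.52, edgeR adjusted p of 0.0595 to 0.216), and also without WT day 1 replicate 1, WT day 1 replicate 2 or KO monocytes replicate 1 (2.19 to 2.21, edgeR adjusted p of 0.0509 to 0.0534). The WT call was lost when any of the 4 WT libraries of those days was left out (1.43 to 2.38, edgeR adjusted p of 0.0536 to 0.213).

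Counted over the family, KO cells at day 1 had 3 of 8 ligands called higher than in their monocytes, where 7.7% of all genes tested were, and 0 called lower, against 6.14%. At day 2 KO cells had 4 higher, against 9.95% of all genes, and 0 lower, against 7.57%. WT cells at day 1 had 3 higher, against 11.4% of all genes, and 1 lower, against 10.1%. At day 2 WT cells had 3 higher, against 12.7%, and 1 lower, against 9.89%. Between day 2 and day 1, 1 of 8 was higher in KO cells and 1 of 8 in WT cells, against 1.5% and 4.67% of all genes, and none was lower, against 0.542% and 3.51%. The median log2 fold change of the 8 ligands at day 2 was 5.75 in KO and 2.79 in WT cells, beside 0.08 and 0.09 over all genes tested. For ligands with no read in monocytes these fitted values are not bounds. In bulk RNA fewer cells of a type and less RNA per cell cannot be told apart, for any of these changes.

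Whether loss of Nr4a3 changed the ligands was asked at each stage separately. None of the 8 was called between KO and WT cells at any stage. Over all genes edgeR called 14 at day 2, all lower in KO cells, or 0.0998% of those tested, and it called 0 (0%) at day 1 and in monocytes. At an unadjusted p under 0.05 the counts over all genes were 444 at day 2, 252 at day 1 and 557 in monocytes, and DESeq2 called 83 genes lower and 1 higher at day 2, 1 higher at day 1 and 0 in monocytes, none of them a ligand.

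**Figure D4:**
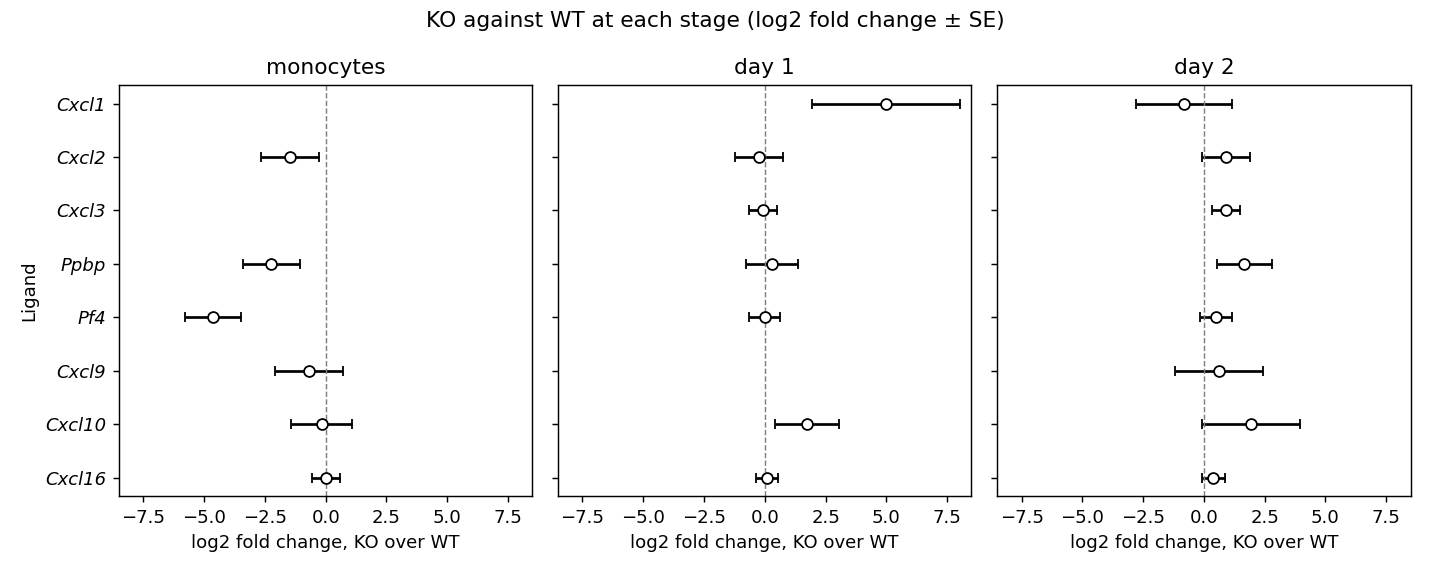
Log2 fold change of each ligand (rows) in KO over WT cells (x axis) in monocytes, at day 1 and at day 2, with bars for the SE of the fit. Hollow points did not pass the test and ligands with no read in either group have no point; Pf4 in monocytes lies farthest below 0, at -4.64.

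At day 2 the KO libraries of Cxcl3, Cxcl10 and Ppbp were both above both WT libraries, as were those of 17.6% of all genes tested. No ligand had both KO libraries below both WT libraries, as 20.6% of all genes did. Cxcl3 had a log2 fold change of 0.90 ± 0.57 in KO over WT cells (edgeR adjusted p = 1), Cxcl10 of 1.93 ± 2.01 on 16 reads in KO and 4 reads in WT cells (edgeR adjusted p = 1) and Ppbp of 1.67 ± 1.12 (edgeR adjusted p = 1). Cxcl2 and Cxcl16 overlapped between the genotypes, with log2 fold changes of 0.92 ± 1.00 and 0.39 ± 0.46 (edgeR adjusted p = 1 for each). Within each replicate number, both were higher in the KO library than in the WT library. Cxcl2 was at 7.0 against 4.02 CPM and at 26.1 against 13.6 CPM, and Cxcl16 at 541 against 422 CPM and at 313 against 230.2 CPM. That order did not hold for Pf4 in replicate 1 (13.2 against 14.9 CPM). Nor did it hold in replicate 2 for Cxcl1 (1.23 against 2.78 CPM) and Cxcl9 (0 against 0.253 CPM). The share of all genes with this order was not counted. The summed ELR ligands, which include Cxcl3 and Ppbp again, were at 83.3 and 92.5 CPM in KO and 44.1 and 44.98 CPM in WT cells, and this sum was not tested.

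At day 1 no ligand separated the genotypes, as 19.4% of all genes tested did in either direction. Instead the libraries of several ligands fell crosswise. Replicate 2 in WT cells was the higher of its pair, as was the library labelled KO day 1 replicate 1 of its own, for Cxcl2, Cxcl3, Cxcl10, Pf4 and Ppbp. Cxcl16 was higher in replicate 2 of both genotypes, at 89.4 and 96 CPM in KO and 62.1 and 112 CPM in WT cells. Cxcl1 had no read in either WT library and Cxcl9 none in any day 1 library. The share of all genes with the crosswise order was not counted. Neutrophil marker sums followed the crosswise order, at 1687 and 948.2 CPM in KO and 1236 and 2286 CPM in WT cells. Among these markers Cxcr2 went the other way in both genotypes, and Retnlg, Elane and Cebpe did not follow it in both. Of the interferon-gamma signalling genes described below, Irf7 was at 103 and 4.32 CPM in KO and 5.36 and 19.3 CPM in WT cells. Isg15 was at 63.2 and 10.1 CPM in KO and 5.03 and 30.3 CPM in WT cells, whereas Stat2, Socs1, Ifngr1 and Ifnar2 did not follow the order. The part of either gene set in these levels was not tested. Macrophage markers, 8 genes, summed to 772 and 458 CPM in KO and 490 and 530.3 CPM in WT day 1 cells. Cxcl3 had a log2 fold change of -0.07 ± 0.56 (edgeR adjusted p = 1), which turned to 0.07 with the experiment as a block. Cxcl10 had a log2 fold change of 1.73 ± 1.33 (edgeR adjusted p = 1), and it turned to -1.23 without the library labelled KO day 1 replicate 1.

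In monocytes the 2 platelet-associated ligands were lower in both KO libraries than in both WT libraries, as were 10.9% of all genes tested. Pf4 was 28.1-fold lower by its 2 reads in KO and 45 reads in WT cells (95% counting interval 7.33 to 239) and was not called (edgeR adjusted p = 0.998). Without the filter on low counts it was called (log2 fold change -4.62, edgeR adjusted p = 3.01e-06), in a fit whose prior degrees of freedom were infinite, against 4.61 with the filter. Ppbp had a log2 fold change of -2.24 ± 1.18 (edgeR adjusted p = 0.998). Of the 14 platelet markers 4 were also lower in both KO than in both WT monocyte libraries and 0 were higher. Without Itgb3 the other 13 summed to 7.07 and 9.0 CPM in KO and 13.9 and 16.5 CPM in WT monocytes. Itga2b, the platelet integrin subunit, was among the 4, at 1.5 and 1.63 CPM in KO and 4.75 and 7.80 CPM in WT monocytes, and Gp1bb, part of the platelet von Willebrand factor receptor, had 0 and 0 reads in KO and 10 and 11 reads in WT monocytes. Other markers overlapped between the genotypes. Gng11 was at 2.07 and 4.46 CPM in KO and 1.45 and 3.37 CPM in WT monocytes, and Gp9 at 0.5 and 1.13 CPM in KO and 1.15 and 0 CPM in WT monocytes. The part of platelet RNA in the difference of Pf4 and Ppbp was not tested.

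The difference between genotypes in the response to culture was tested directly as an interaction. For Pf4 the response of KO cells exceeded that of WT cells by a log2 fold change of 4.64 ± 1.35 at day 1 (edgeR adjusted p = 1) and 5.16 ± 1.35 at day 2 (edgeR adjusted p = 0.841). For Ppbp it exceeded it by 2.53 ± 1.59 at day 1 (edgeR adjusted p = 1) and 3.91 ± 1.63 at day 2 (edgeR adjusted p = 1). None passed the adjusted threshold. Without the filter on low counts Pf4 passed at day 1 and day 2 (edgeR adjusted p = 6.18e-05 and 1.93e-06) and Ppbp at day 2 (edgeR adjusted p = 0.00199), and DESeq2 called Pf4 at day 2 (5.39, adjusted p = 0.0485). All 4 values contain the monocyte libraries, where KO counts of both genes were low. At day 1 the 2 genotypes overlapped for both genes, and at day 2 they overlapped for Pf4. For Ppbp both KO libraries at day 2 were above both WT libraries, at 12 and 19 CPM against 4.83 and 4.93 CPM. The part of each stage in these values was not tested.

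Of 7 further CXC ligand genes, 2 passed the filter on low counts. Cxcl12, the stromal ligand of CXCR4, was at 0.666 and 0.163 CPM in KO and 0.115 and 0 CPM in WT cells at day 2, against 2.28 and 2.76 CPM in KO and 10.9 and 9.59 CPM in WT monocytes. It fell in WT cells (log2 fold change -7.19 ± 1.63, edgeR adjusted p = 0.0105), a call lost without WT day 2 replicate 2 (-6.36, edgeR adjusted p = 0.087), and did not pass in KO cells (-2.70 ± 1.29, edgeR adjusted p = 0.174).

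Of 9 receptors that bind CXC ligands, 4 passed the filter. Cxcr2, the receptor of the ELR ligands, appeared with culture, with 321 and 496 CPM in KO and 157 and 315 CPM in WT cells at day 2, against 2.43 and 0.921 CPM in KO and 1.15 and 1.48 CPM in WT monocytes. Its log2 fold change at day 2 was 7.92 ± 1.63 in KO (edgeR adjusted p = 0.00792) and 7.49 ± 1.63 in WT cells (edgeR adjusted p = 0.00862). The KO call was lost without KO monocytes replicate 1 (8.75, edgeR adjusted p = 0.059) or replicate 2 (7.40, edgeR adjusted p = 0.091), and the WT call without WT monocytes replicate 2 (7.66, edgeR adjusted p = 0.0502). At day 1 Cxcr2 was at 1.21 and 142 CPM in KO and 217 and 189 CPM in WT cells, the first of these being the library labelled KO day 1 replicate 1. The KO day 1 fold change of 5.41 ± 1.48 (edgeR adjusted p = 0.0357) became -0.45 without KO day 1 replicate 2, leaving that library alone. Cxcr4, the receptor of Cxcl12, was at 64.3 and 10.9 CPM in KO and 129.1 and 25.3 CPM in WT cells at day 2, against 213 and 225 CPM in KO and 226 and 211 CPM in WT monocytes. It fell in KO cells (log2 fold change -2.56 ± 0.79, edgeR adjusted p = 0.048) and had a log2 fold change of -1.5 ± 0.76 in WT cells (edgeR adjusted p = 0.174). The KO call on Cxcr4 was lost without either KO day 2 replicate 2 or any KO or WT day 1 library or any KO monocyte library (-2.61 to -1.78, edgeR adjusted p of 0.0539 to 0.187). The WT value passed with the experiment as a block (-1.94, edgeR adjusted p = 0.000167).

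NF-kB subunits and genes that NF-kB is known to induce, 18 in all, rose more often than they fell by day 2, with 10 higher and 0 lower in KO and 10 higher and 3 lower in WT cells. The shares over all genes were 9.95% higher and 7.57% lower in KO and 12.7% higher and 9.89% lower in WT cells. Their median log2 fold change was 1.37 in KO and 1.64 in WT cells, beside 0.08 and 0.09 over all genes. Rel, an NF-kB subunit, was at 344 and 290 CPM in KO and 618 and 534 CPM in WT cells at day 2, against 85.7 and 56.6 CPM in KO and 92.7 and 59.5 CPM in WT monocytes. It rose by a log2 fold change of 2.15 ± 0.31 in KO (edgeR adjusted p = 0.00124) and 2.92 ± 0.32 in WT cells (edgeR adjusted p = 0.000219). Relb, the subunit of the alternative pathway, rose by 1.71 ± 0.39 in KO (edgeR adjusted p = 0.0132) and 3.56 ± 0.42 in WT cells (edgeR adjusted p = 0.000328). The KO call on Relb was lost without KO day 2 replicate 1 (1.16, edgeR adjusted p = 0.115) or without either KO monocyte library (1.43 and 2.02, edgeR adjusted p = 0.127 and 0.0501). Icam1, an adhesion molecule, rose by 2.31 ± 0.33 in KO (edgeR adjusted p = 0.00124) and 2.83 ± 0.34 in WT cells (edgeR adjusted p = 0.000351). Rela, the main activating subunit, had log2 fold changes of -0.09 ± 0.38 in KO (edgeR adjusted p = 0.908) and 0.48 ± 0.39 in WT cells (edgeR adjusted p = 0.394).

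Of 20 genes of interferon-gamma signalling, the pathway of Cxcl9 and Cxcl10, 2 were higher and 2 lower in KO cells at day 2 and 2 were higher and 5 lower in WT cells, with median log2 fold changes of -0.71 in KO and -0.56 in WT cells. Over all genes 9.95% were higher and 7.57% lower in KO cells and 12.7% higher and 9.89% lower in WT cells. The risers were Cd274, the checkpoint ligand PD-L1, by 5.19 ± 0.46 in KO (edgeR adjusted p = 8.34e-05) and 6.82 ± 0.51 in WT cells (edgeR adjusted p = 2.75e-05), and Socs1, an inhibitor of cytokine signalling, by 4.31 ± 0.53 in KO (edgeR adjusted p = 0.000498) and 4.81 ± 0.55 in WT cells (edgeR adjusted p = 0.00027). Ifngr1, the ligand-binding chain of the interferon-gamma receptor, fell by 2.09 on the log2 scale in KO (SE 0.44, edgeR adjusted p = 0.00901) and by 2.37 in WT cells (SE 0.45, edgeR adjusted p = 0.00404). The KO call on Ifngr1 was lost without KO day 2 replicate 2 (-1.70, edgeR adjusted p = 0.0782) or KO monocytes replicate 1 (-2.0, edgeR adjusted p = 0.0505). The other receptor chain, Ifngr2, had a log2 fold change of -0.10 ± 0.26 in KO (edgeR adjusted p = 0.842) and -0.46 ± 0.26 in WT cells (edgeR adjusted p = 0.227).

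Of 10 proteases known to shed or cut CXC ligands, 2 were higher and 3 lower in KO cells at day 2 and 3 were higher and 3 lower in WT cells, beside 9.95% higher and 7.57% lower of all genes in KO and 12.7% and 9.89% in WT cells. Mmp12, a macrophage elastase, was at 3739 and 3005 CPM in KO and 1940 and 1007 CPM in WT cells at day 2, against 0.5 and 0.567 CPM in KO and 0.153 and 0.948 CPM in WT monocytes. Its log2 fold change was 12.60 ± 1.03 in KO (edgeR adjusted p = 5.47e-05) and 11.47 ± 1.01 in WT cells (edgeR adjusted p = 5.56e-05). Of the neutrophil granule proteases, Prtn3 and Elane fell. The log2 fold change of Prtn3 was -8.61 ± 0.53 in KO (edgeR adjusted p = 1.84e-05) and -5.99 ± 0.46 in WT cells (edgeR adjusted p = 2.85e-05). That of Elane was -5.76 ± 0.63 in KO (edgeR adjusted p = 0.000288) and -6.63 ± 0.66 in WT cells (edgeR adjusted p = 0.000128). Adam17, one of the sheddases of membrane-bound Cxcl16, had log2 fold changes of 1.06 ± 0.50 in KO (edgeR adjusted p = 0.168) and 0.88 ± 0.50 in WT cells (edgeR adjusted p = 0.221), and the KO value passed with the experiment as a block (0.91, edgeR adjusted p = 0.0294).

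Proteins that control the decay or stability of chemokine mRNA, 10 genes, had 2 higher and 2 lower members in KO and 1 higher and 2 lower in WT cells at day 2. The shares over all genes were 9.95% higher and 7.57% lower in KO and 12.7% higher and 9.89% lower in WT cells. Zfp36, which binds ATTTA runs and promotes decay, was at 119 and 91.5 CPM in KO and 153 and 104 CPM in WT cells at day 2, against 1477 and 1065 CPM in KO and 1507 and 471 CPM in WT monocytes. It fell by 3.59 on the log2 scale in KO (SE 0.53, edgeR adjusted p = 0.00133) and by 2.95 in WT cells (SE 0.51, edgeR adjusted p = 0.0026). Its relative Zfp36l1 went the other way, with a log2 fold change of 5.39 ± 0.63 in KO (edgeR adjusted p = 0.000408) and 7.98 ± 0.72 in WT cells (edgeR adjusted p = 6.9e-05). Zfp36l2, the third of these proteins, fell by 2.29 in KO (SE 0.69, edgeR adjusted p = 0.0435) and by 2.96 in WT cells (SE 0.71, edgeR adjusted p = 0.0137). The WT call on Zfp36l2 was lost without WT day 2 replicate 2 (-2.63, edgeR adjusted p = 0.104) or WT monocytes replicate 1 (-1.45, edgeR adjusted p = 0.0802), and the KO call without any KO day 2, WT day 1 or KO monocyte library (-2.73 to -1.67, edgeR adjusted p of 0.0546 to 0.224). In all 6 lists no gene was called between KO and WT cells at any stage.

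Across the 12 libraries, which share 3 stages and 4 experiments, the genes whose log2 CPM most resembled that of Cxcl16 were Cd9, H2-Eb1 and Oxct1 (Pearson r of 0.990, 0.989 and 0.989 among 9538 genes compared). Those nearest to Cxcl3 were Mmp12, Creb5 and H2-Ab1 (0.987, 0.987 and 0.987), and those nearest to Cxcl2 were Plek, Tmem154 and Spp1 (0.938, 0.937 and 0.923). For Cxcl10 they were Arfip1, Igtp and Evi2 (0.947, 0.946 and 0.941), and for Cxcl9 Cenpl, Nop53 and H2afz (0.967, 0.954 and 0.946). Pf4 was nearest to Polk, Aktip and C1qb (0.944, 0.940 and 0.939). The likeness was looser for Cxcl1, with Snap29, Mbd1 and Gsn (0.893, 0.880 and 0.876), and for Ppbp, with Zfp287, Atp6v0c-ps2 and Ndufaf1 (0.857, 0.829 and 0.820).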

How the data were processed

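Per the submitters' processing notes, reads were trimmed with Trimmomatic 0.35 and aligned to GRCm38 with STAR 2.5.1b; the sources used here do not give the annotation release. For each library the authors deposited 1 table of raw gene read counts without strand and for each strand. The strand-specific counts that match the labels' stranded kit were used here. Rows of unmapped (2.65 to 7.91%), multimapping (5.29 to 8.94%), unassigned (5.24 to 11.2%) and ambiguous (1.34 to 1.76%) reads were left out. Symbols, strands and lengths came from a GENCODE annotation of GRCm38, which held 47224 of the 47643 gene IDs, 39106 in the same version, including all 8 ligands.

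Genes were tested with edgeR 4.0.16 (R 4.3.3): filterByExpr, trimmed mean of M-values scaling, 1 mean per group over all 12 libraries and a robust quasi-likelihood test in 9 contrasts and 3 interactions, with p-values adjusted over all 14034 genes and a threshold of 0.05. Counting intervals are exact at 95%, a count of 0 is limited by 3 reads, and both cover counting error only, since PCR copies cannot be told from separate molecules. Log2 CPM for likeness used a prior count of 2 and genes of at least 5 CPM on average. No 2 libraries of a group agreed within sampling noise. The members and lists were chosen with earlier results of these data known. Genes named from a list are up to 3 called ones with the smallest adjusted p and up to 2 uncalled ones with the highest mean CPM in a described contrast; genes named for likeness are the 3 with the highest r, without predicted or clone-named genes. Gp1bb, Itga2b, Gng11 and Gp9 were named after their values were seen, as were the single genes given for the order of the day 1 libraries.

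Dates carried by the deposited tables pair KO and WT libraries of the same number, and monocyte with day 1 libraries. Deviations from group means correlated between the genotypes at 0.657 at day 2, and weakly at day 1 (0.194) and in monocytes (0.236). Between day 1 and monocytes the correlation was also weak (0.128 for KO, 0.276 for WT). With 2 libraries a group such weak values cannot establish a pairing, so outside day 2 it rests on the dates. Names of the day 1 replicate 2 tables give a culture shorter than the labelled day. Alternatives were another scaling, no filter, the experiment as a block, DESeq2 1.42.0, unstranded counts and leaving out libraries.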

Additional observations from a re-analysis of the deposited data

How the results depend on the processing

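Of 864 recomputed log2 fold changes of the ligands, 12 libraries left out in turn included, 789 kept their direction and their side of the threshold, 29 lost a call, 36 gained one and 10, none of them called, turned their sign. The 17 ligand calls were kept under another scaling and with unstranded counts; there were 34 without the filter on low counts and 24 with DESeq2, each including the 17, 13 without WT monocytes replicate 2 and KO day 1 replicate 1 together, and 14 to 18 with each library left out. With the replicate block there were 19, of which 16 were shared: besides the changes for Cxcl2, Cxcl9, Cxcl10, Cxcr4, Adam17 and Cxcl3 given above, Cxcr2 in KO day 1 cells lost its call (4.80, edgeR adjusted p = 0.138), and the block changed no other reported call. The number of ligands called became 6 without the filter, 5 with the replicate block and 6 with DESeq2 in KO day 1 cells against monocytes. It became 2 without the 2 libraries together in WT day 2 cells against monocytes (2 to 4 with each library left out). Between day 2 and day 1 it became 3 without the filter in both genotypes, 2 with DESeq2 in WT cells and 0 without the 2 libraries together in KO cells (0 to 1 with each library left out, in both). Without the filter it became 1 between KO and WT monocytes, 1 for the day 1 interaction and 2 for the day 2 interaction, which was 1 with DESeq2. Values that turned, with each library left out, spanned -0.35 to 2.07 for Cxcl2 and -0.029 to 0.88 for Cxcl16 in KO over WT day 2 cells, -0.66 to 1.03 for Cxcl3 and -1.23 to 9.91 for Cxcl10 in KO over WT day 1 cells, and -0.57 to 1.48 for Ppbp in WT day 1 cells against monocytes. They spanned 0 to 5.97 for Cxcl1 and -0.45 to 6.36 for Cxcr2 in KO day 1 cells, and -0.20 to 0.026 in KO and -0.015 to 1.21 in WT day 2 cells for Rela, each against monocytes. Without the 2 libraries together, Cxcl10 in KO over WT day 1 cells was -1.25, Cxcl1 in KO day 1 cells was 0 and Rela in WT day 2 cells was -0.048, and with the block Cxcl3 in KO over WT day 1 cells was 0.068. Over all genes, calls between KO and WT day 2 cells were 13 to 134 lower and 0 to 8 higher under other settings (1 to 27 and 0 with each library left out), against 14 and 0 in the fit used. At day 1 they were 0 to 28 lower and 0 to 112 higher, and in monocytes 0 to 18 lower and 0 to 22 higher (up to 123 with a library left out), against 0. Between day 2 and day 1 they were 210 to 806 higher and 61 to 524 lower in KO cells, against 211 and 76, and 632 to 1324 higher and 423 to 1328 lower in WT cells, against 656 and 493. In KO cells against monocytes they were 925 to 1734 higher and 904 to 1574 lower at day 1, against 1081 and 861, and 989 to 1844 lower at day 2, against 1063. The day 1 interaction had 0 to 35 lower and 0 to 80 higher, against 0 and 0, and the day 2 interaction 3 to 74 lower and 0 to 19 higher, against 4 and 0. The cause of these changes was not tested. Depth limits Cxcl1, Cxcl9 after culture, Cxcl10 at day 2, and Pf4 and Ppbp in KO monocytes, each on few reads, and 2 libraries a group limit all comparisons between genotypes.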
